A study of Mus musculus with 2 samples.

Results

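The genes described here encode the matrix and cell-surface metalloproteases of the Adam, Adamts and Mmp families and the related Adamtsl proteins. They are the protein-coding genes on chromosomes 1 to 19 whose symbol is Adam, Adamts, Adamtsl or Mmp followed by a digit. The rule gave 79 members among 20722 such genes with an annotated start, namely 33 Adam, 19 Adamts, 5 Adamtsl and 22 Mmp genes. Open chromatin at these genes was measured by DNase-seq, in which nuclei are treated with the enzyme DNase I and DNA that is open to it is found by sequencing the cuts. The samples were whole limbs of B6NCrl mouse embryos at 11.5 days, males and females pooled, in 2 libraries that the labels call biological replicates. There is no second condition, so no test between groups was possible, and members are set beside all genes as a description. The tissue holds several cell types, and a site open in few cells cannot be told apart from a weakly open site in many.

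All these enzymes but the Adamtsl proteins belong to the zinc-dependent metalloproteases. Adam proteins are mostly membrane-bound, and the active ones cut the outer parts of other membrane proteins, such as Notch receptors and growth factor precursors, a step called shedding. A large subset is known mainly from sperm, testis and epididymis. Adamts enzymes are secreted; they trim procollagens and cut proteoglycans such as versican and aggrecan, and versican cleavage by Adamts5, Adamts9 and Adamts20 is known from the regression of the web between digits. Adamtsl proteins resemble them without the protease domain. Mmp enzymes degrade collagens and other matrix proteins, and several are known from cartilage and bone of later limbs. Many secreted Mmp genes carry a TATA box and a site for AP-1, the factor of Fos and Jun proteins, close to the start.

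The deposited peaks were 150 bp wide, and overlapping peaks of both libraries were merged and called shared. A promoter peak had its centre within 1 kb of a protein-coding start of the gene. A distal peak lay more than 1 kb from every protein-coding start and was given to the gene of the nearest such start within 500 kb. Starts of other kinds of genes and transcripts were not counted, so a distal peak can lie at one of them. A body peak lay inside the gene and was not its promoter peak, so a peak inside a gene can be both body and distal. Replicate 1 held 174430 and replicate 2 held 167369 peaks on the named chromosomes. As a check of the tissue label, a shared promoter peak, present at 68.1% of all genes, was found at 10 of 10 limb mesenchyme genes, 7 of 8 surface ectoderm genes, 3 of 8 endothelial genes, 4 of 8 germ cell genes and 1 of 8 white blood cell genes. Values called signal are the authors' own numbers per peak, ran from 2 to 149 over both libraries and have no stated unit.

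Sequences before the start are shown for Mmp genes of the chromosome 9 cluster and for members with a shared promoter peak. The first sequences below are 6 of the 9 Mmp genes of that cluster, all without any promoter peak in either library. The others, Mmp1b, Mmp8 and Mmp27, are not shown. Of these, Mmp1b holds the AP-1 word in the 300-bp windows counted below, and Mmp8 and Mmp27 do not. Each sequence shown gives the 120 bases before the RefSeq start (GRCm38.p6), 5′ to 3′ on the gene's strand. The AP-1 word TGANTCA and the TATA word TATAAA are in capitals.
Mmp13, chr9:7272394-7272513, plus strand: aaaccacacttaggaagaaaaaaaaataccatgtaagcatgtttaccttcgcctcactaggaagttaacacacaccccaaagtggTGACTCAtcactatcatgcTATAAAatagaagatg
Mmp3, chr9:7445702-7445821, plus strand: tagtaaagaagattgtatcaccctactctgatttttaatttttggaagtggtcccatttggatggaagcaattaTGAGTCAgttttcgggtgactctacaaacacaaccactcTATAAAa
Mmp10, chr9:7502222-7502341, plus strand: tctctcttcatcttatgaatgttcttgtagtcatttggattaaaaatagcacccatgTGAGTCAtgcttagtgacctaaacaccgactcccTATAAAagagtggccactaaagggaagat
Mmp7, chr9:7691970-7692089, plus strand: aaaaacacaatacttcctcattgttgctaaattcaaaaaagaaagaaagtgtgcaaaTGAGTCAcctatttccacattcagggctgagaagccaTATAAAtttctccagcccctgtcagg
Mmp20, chr9:7628111-7628230, plus strand: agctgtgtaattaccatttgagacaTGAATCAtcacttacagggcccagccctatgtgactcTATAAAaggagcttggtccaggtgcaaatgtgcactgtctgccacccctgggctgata
Mmp12, chr9:7347254-7347373, plus strand: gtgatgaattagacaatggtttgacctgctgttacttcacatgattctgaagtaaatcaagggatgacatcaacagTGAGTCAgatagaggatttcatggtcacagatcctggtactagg
The AP-1 word allows any middle base, which was A in Mmp20 and C or G in the others shown. The AP-1 word began 35 bases before the start in Mmp13, 46 in Mmp3, 63 in Mmp10, 63 in Mmp7, 95 in Mmp20 and 44 in Mmp12. The TATA word followed it in the first 5, beginning 16, 7, 29, 26 and 58 bases before the start in the same order, and was not in the stretch shown for Mmp12. Distances count from the RefSeq start, which need not be the start used in a tissue. The next sequences show the same stretch of 3 members with a shared promoter peak, chosen as examples with the GC box GGGCGGG, a site for Sp factors, which is in capitals. Only 24 of the 48 members with a shared promoter peak hold it near the start, and Adamts17, Adamts1 and Adam1a, which are among the 6 with the highest promoter signal, do not.
Adam10, chr9:70678862-70678981, plus strand: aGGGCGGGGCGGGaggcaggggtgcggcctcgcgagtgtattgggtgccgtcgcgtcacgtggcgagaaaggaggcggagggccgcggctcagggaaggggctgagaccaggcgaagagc
Mmp14, chr14:54431478-54431597, plus strand: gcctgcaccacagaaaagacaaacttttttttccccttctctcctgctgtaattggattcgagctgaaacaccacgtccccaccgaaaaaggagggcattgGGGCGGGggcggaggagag
Adamts20, chr15:94404351-94404470, minus strand: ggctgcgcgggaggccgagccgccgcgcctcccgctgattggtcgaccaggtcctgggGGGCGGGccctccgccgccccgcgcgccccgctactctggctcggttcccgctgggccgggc
None of these 3 stretches held the AP-1 or the TATA word on either strand. Adam10 had GC boxes beginning 119 and 114 bases before the start, which overlap by some letters. Mmp14 had its GC box at 19 bases and Adamts20 at 62.

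A shared promoter peak was found at 48 of the 79 members (60.8%), beside 68.1% of all 20722 genes. Each library alone had a promoter peak at 51 members, where the background was 69.7% in replicate 1 and 70.1% in replicate 2. Members without a shared peak came largely from the testis-type Adam genes and the Mmp cluster of chromosome 9. Testis-type Adam genes had one at 5 of 21 and the Mmp genes of the chromosome 9 cluster at 0 of 9. The other 49 members had one at 43 (87.8%).

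**Figure D1:**
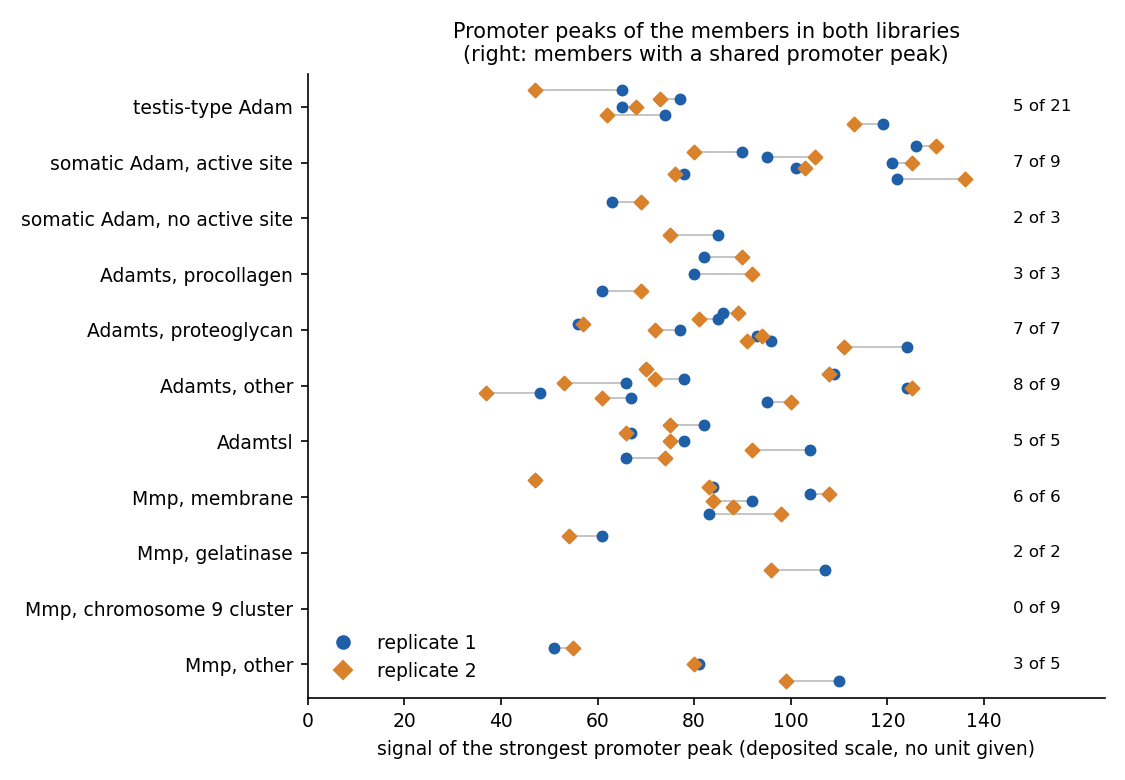
Signal of the strongest promoter peak of each member with a shared promoter peak, on the deposited scale without unit, for replicate 1 (circles) and replicate 2 (diamonds), with a line joining the same gene. Rows are functional groups and the counts at the right give members with a shared promoter peak, from 0 of 9 in the chromosome 9 cluster to 7 of 7 in the proteoglycan-cutting Adamts genes; Adam10 and Adam9 reach the highest values, 136 and 130 in replicate 2.

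Among the active somatic Adam genes, 7 of 9 had a shared promoter peak. Adam10, the sheddase that cuts Notch receptors, had a signal of 122 in replicate 1 and 136 in replicate 2, or 129 ± 9.90 (SD, n = 2). Adam17, which releases TNF and EGF-family ligands, had 121 and 125, or 123 ± 2.83 (SD, n = 2). These values stood above the median of 108 over all genes with a promoter peak, in each library. Adam9 had 126 and 130, from a peak that also lies within 1 kb of a start of Tm2d2. Adam15 followed with 101 and 103, Adam19 with 95 and 105, Adam33 with 90 and 80 and Adam12 with 78 and 76. The Adam33 and Adam12 values come from starts inside those genes. At the 5′ end of Adam12 the shared peak had 34 in replicate 1 and 21 in replicate 2. Adam8 and Adam28, known from white blood cells, lacked a shared promoter peak. Adam8 had a weak promoter peak of signal 30 in replicate 2 only, and Adam28 had one of 26 in replicate 1 only. Of the 3 neuronal Adam genes without an active site, Adam22 had promoter signals of 85 and 75 and Adam23 of 63 and 69, and Adam11 had no shared promoter peak.

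All 3 procollagen-trimming Adamts genes had a shared promoter peak. Adamts2 had a signal of 80 in replicate 1 and 92 in replicate 2, Adamts3 had 82 and 90, and Adamts14 had 61 and 69. All 7 proteoglycan-cutting genes had one as well. Adamts1 was highest in this group at 124 and 111, or 118 ± 9.19 (SD, n = 2), and Adamts5, known for aggrecan and versican cleavage, was lowest at 56 and 57. Adamts20 had 93 and 94 and Adamts9 had 86 and 89, so the 3 enzymes known from web regression differed among themselves by more than the libraries did. In the remaining Adamts group 8 of 9 genes had a shared promoter peak. Adamts17 had 124 and 125, and Adamts6 had 109 and 108; both are linked to fibrillin fibres. Adamts13, the blood enzyme that cuts von Willebrand factor, had 48 and 37, the lowest among the 8. Adamts16 had a weak promoter peak of signal 20 in replicate 2 only. The nearest peak of replicate 1, with a signal of 87, lay 1460 bp from a start of Adamts16, outside the 1 kb window. All 5 Adamtsl genes had a shared promoter peak, from Adamtsl2 at 104 and 92 to Adamtsl4 at 67 and 66.

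Of the Mmp genes outside the chromosome 9 cluster, all 6 membrane-type genes and both gelatinases had a shared promoter peak. Mmp14, a membrane collagenase that activates the Mmp2 proenzyme, had a signal of 83 in replicate 1 and 98 in replicate 2, or 90.5 ± 10.6 (SD, n = 2). Mmp2 itself had 107 and 96, or 102 ± 7.78 (SD, n = 2). The other gelatinase, Mmp9, had 61 and 54, below Mmp2 in each library. Mmp17 had 104 and 108, the highest of the membrane group, and Mmp25, known from leukocytes, had 47 and 47, the lowest. Mmp11 had 110 and 99, from a peak that also lies near a start of Chchd10. Mmp19 and Mmp21 had no promoter peak in either library.

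Where members had a promoter peak, its signal was lower than at genes in general. The median of the strongest promoter peak was 82 in replicate 1 and 80 in replicate 2 over members with such a peak, and 108 in both over all genes. CpG-rich starts, defined as a 1-kb window with at least 50% G and C and a ratio of observed to expected CpG of at least 0.6, were present at 26 of 79 members (32.9%) and at 46.1% of all genes. The window lay at 1 start per gene, the annotated one of most protein-coding transcripts, while a promoter peak could lie at any start. The median signal was lower in members within each class. At CpG-rich starts it was 85.5 and 90 in members beside 114 and 115 in all genes, and at CpG-poor starts it was 74 and 70 beside 87 and 84. These are descriptions of 2 libraries without a test.

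**Figure D2:**
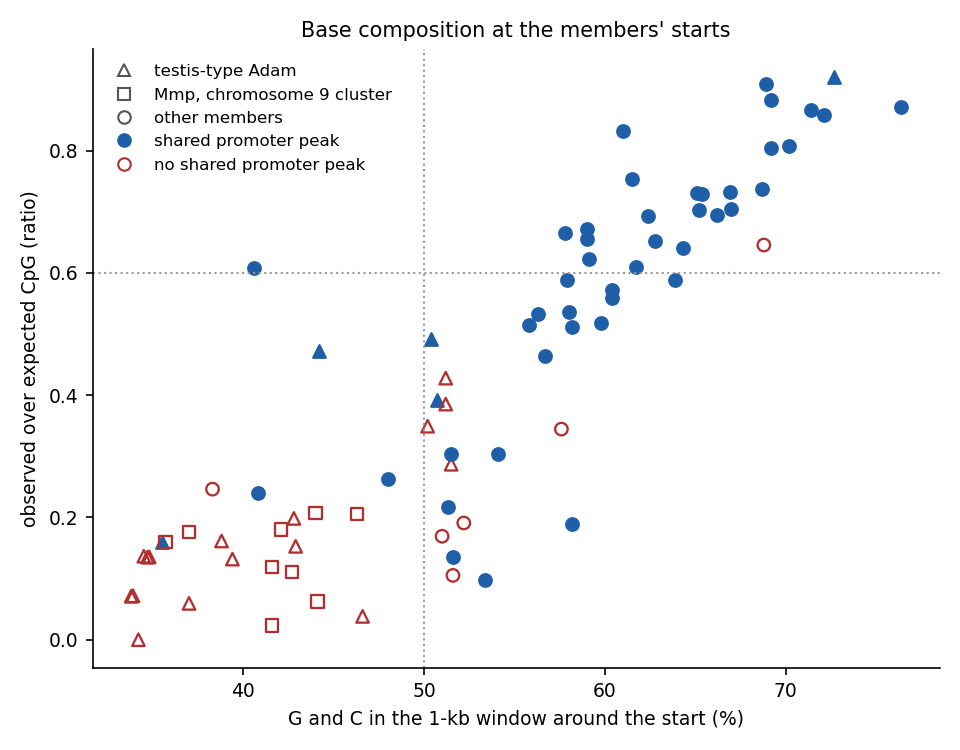
Each point is a member, placed by the percentage of G and C in the 1-kb window around its start (horizontal axis). The vertical axis is the ratio of observed to expected CpG. The start is the annotated one of most protein-coding transcripts, and a promoter peak may lie at another. Dotted lines mark 50% and 0.6. Filled points have a shared promoter peak: 25 of the 26 CpG-rich members are filled, and the open point among them is Adam11.

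A shared promoter peak was found at 25 of 26 CpG-rich members (96.2%), beside 97.8% of all CpG-rich genes. It was found at 23 of 53 CpG-poor members (43.4%), beside 42.6% of all CpG-poor genes. Split this way, the members' shares were close to those of all genes. Adam22 and Adam33 were classed as CpG-poor from a start without a peak, since their shared promoter peaks lay at another start. All genes were classed in the same way. The testis-type Adam genes were 1 of 21 CpG-rich and the chromosome 9 Mmp genes 0 of 9. Within CpG-poor starts a shared promoter peak was seen at 4 of 20 testis-type Adam genes and at 0 of 9 chromosome 9 Mmp genes.

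The single CpG-rich member without a shared promoter peak was Adam11, whose window had 68.8% G and C and a CpG ratio of 0.65. Replicate 1 had 3 promoter peaks there with a highest signal of 39, and the nearest peak of replicate 2 lay 1812 bp from a start. Yet Adam11 held the distal shared peak that ranked highest among those of all members by the mean of its signal ranks in both libraries, in an intron of its own gene 13.4 kb from the start. That peak had a signal of 110 in replicate 1 and 126 in replicate 2. A second peak, 12.7 kb from the protein-coding start and intronic for protein-coding transcripts, had 101 and 106. The annotation places the start of an Adam11 transcript without a coding sequence 16 bp from the centre of the second peak and 744 bp from that of the first. Adam11 had 11 distal peaks in each library and 11 shared ones.

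Adam1a, Adam2, Adam5, Adam7 and Adam32 were the 5 testis-type Adam genes with a shared promoter peak. Adam1a, which encodes a fertilin subunit, had the strongest, at 119 and 113, or 116 ± 4.24 (SD, n = 2). It has a CpG-rich start, and its strongest peak, centred 509 bp from a start of Adam1a in replicate 1, also lies at a start of Mapkapk5. Adam5 had 77 and 73, Adam2, the other fertilin subunit, 74 and 62, Adam32 65 and 68, and Adam7, known from the epididymis, 65 and 47. Apart from Adam1a, these genes lay below the median of all genes in both libraries. Adam3 had a promoter peak of signal 23 in replicate 1 only and Adam18 one of 15 in replicate 2 only. The remaining 14, namely Adam1b, Adam4, Adam6a, Adam6b, Adam20, Adam21, Adam24, Adam25, Adam26a, Adam26b, Adam29, Adam30, Adam34 and Adam39, had no promoter peak in either library. The germ cell marker genes had a shared promoter peak at 4 of 8; whether germ cells contribute to the peaks of the Adam genes was not tested.

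The promoter peaks of Adam7 and Adam32 are printed as examples of open CpG-poor starts of testis-type genes; no start of another protein-coding gene lies within 1 kb of them. They give the merged peak on the gene's strand, 5′ to 3′, from GRCm38, with matched words in capitals. The words searched on both strands, here and in the distal peaks, were TGANTCA for AP-1, TATAAA for the TATA box, GGGCGGG for the GC box, CCGGAAG for ETS factors, TGTGGTT for RUNX, CAGCTG for the E-box, CATTCCA for TEAD, AGGGGGC for CTCF and AGATAA for GATA factors; the GC box and the CTCF word can overlap.
Adam7 peak, chr14:68533716-68533885, minus strand: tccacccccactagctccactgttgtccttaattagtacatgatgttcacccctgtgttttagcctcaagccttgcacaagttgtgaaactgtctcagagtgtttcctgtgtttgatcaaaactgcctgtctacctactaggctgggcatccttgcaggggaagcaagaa
Adam32 first peak, chr8:24948256-24948425, minus strand: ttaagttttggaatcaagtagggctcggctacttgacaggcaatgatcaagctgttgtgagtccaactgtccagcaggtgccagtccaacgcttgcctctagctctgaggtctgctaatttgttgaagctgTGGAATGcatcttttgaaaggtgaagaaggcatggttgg
Adam32 second peak, chr8:24948836-24949045, minus strand: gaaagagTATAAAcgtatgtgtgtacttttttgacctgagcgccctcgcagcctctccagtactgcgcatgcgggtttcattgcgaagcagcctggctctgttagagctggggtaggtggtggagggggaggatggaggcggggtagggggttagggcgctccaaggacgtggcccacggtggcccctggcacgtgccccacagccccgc
The Adam7 peak held none of the words searched. The first Adam32 peak held a TEAD word in its reverse form and the second a TATA word.

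The 9 Mmp genes of the chromosome 9 cluster lie in chr9:7272514-7699585, a span of 427 kb on mm10. They include the collagenases Mmp13 and Mmp8, the related Mmp1b, the stromelysins Mmp3 and Mmp10, the elastase Mmp12, the enamel protease Mmp20, Mmp7 and Mmp27. The span held 11 peaks in replicate 1, 7 in replicate 2 and 5 shared peaks. That is 1.17 shared peaks per 100 kb, where the autosomes had 4.70. The strongest shared peak of the cluster, at chr9:7595356-7595505, had signals of 93 and 79 and had Mmp27 as the nearest start at 24.0 kb. The next, at chr9:7603456-7603625, had 71 and 69 and lay 24.7 kb from Mmp20. Mmp7 had 3 distal shared peaks and Mmp8, Mmp20 and Mmp27 had 1 each. Mmp13, Mmp3, Mmp10, Mmp12 and Mmp1b had no shared peak of any class.

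The letters shown above were counted on both strands in 300-bp windows, from 250 bases before to 50 after 1 start per gene. That was the GENCODE start of most protein-coding transcripts. In Adam22 and Adam33 the shared promoter peaks lay at another start. The AP-1 word occurred in 7 of the 9 cluster windows (77.8%), in 6.67% of all genes and in 9.42% of CpG-poor genes. The TATA word occurred in 8 of 9 (88.9%), in 12.7% of all genes and in 18.6% of CpG-poor genes. The GC box occurred in 0 of 9, in 32.7% of all genes and in 14.0% of CpG-poor genes. Over the 31 members without a shared promoter peak the shares were 48.4% for AP-1, 41.9% for TATA and 3.23% for the GC box. Over the 48 with one AP-1 was in 2.08% and TATA in 10.4%, and the GC box was in 24 of them. The only member with both the AP-1 word and a shared promoter peak was Adam19. The AP-1 word was also present at 7 of 21 testis-type Adam genes. Among them were Adam20, Adam24, Adam25 and Adam39, which lie close together on chromosome 8. Their windows, like those of the Mmp cluster, need not be independent. The control word GATTACA occurred in 6.45% of windows without and 2.08% of windows with a shared promoter peak, or 2 and 1 genes. A word match is a description of letters and not a binding site.

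**Figure D3:**
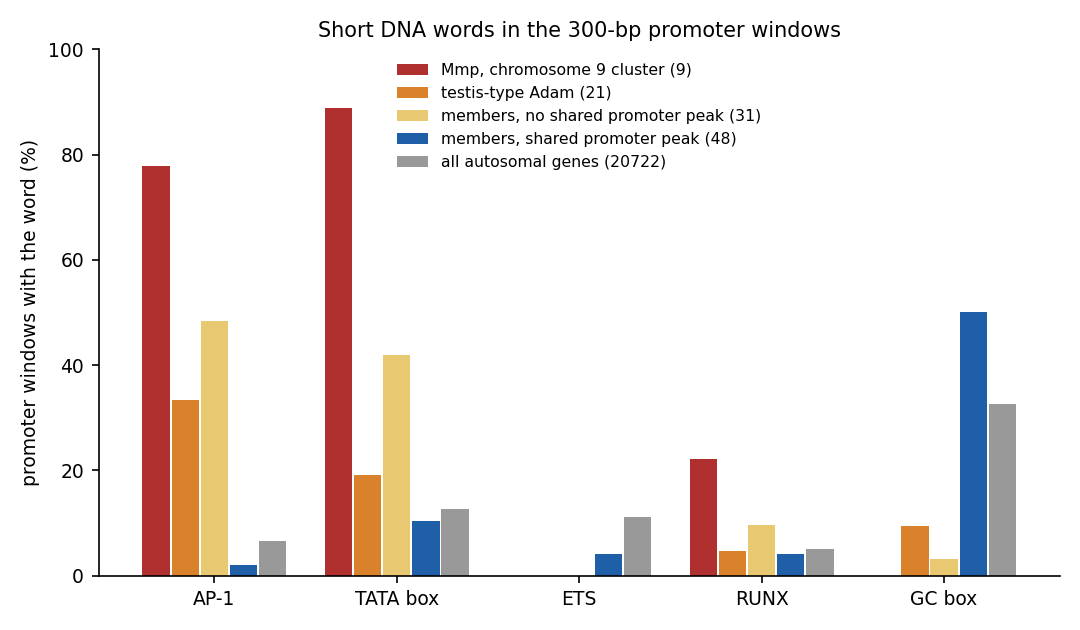
Share of 300-bp promoter windows that hold each short word on either strand, in percent, for the groups given in the key with their numbers of genes. In the chromosome 9 Mmp genes AP-1 reaches 77.8% and TATA 88.9%, and the GC box is in 24 of the 48 members with a shared promoter peak.

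Distal peaks were present at 65 of 79 members (82.3%), beside 67.0% of all genes. The median was 3 shared distal peaks per member (4 in each library alone) and 2 per gene over all genes. Members with 10 or more numbered 15 of 79, beside 12.6% of all genes. With a reach of 50 kb these were 3.80% of members beside 4.45% of all genes, and with peaks above the median signal 5.06% beside 4.76%. No shared peak of any class was found at 10 members (12.7%), where the background was 16.0%, and these were the 5 Mmp genes named above and Adam1b, Adam21, Adam24, Adam25 and Adam39. A body peak was shared at 50 members (63.3%), beside 48.1% of all genes. Counts in both libraries ran together over the 79 members, with Pearson r of 0.931 and Spearman rho of 0.946. The distal count also ran with the stretch of genome for which the gene had the nearest start, at r of 0.611 and rho of 0.676. Both are descriptions across genes, which are not independent replicates. Per length of that stretch, the members had 3.66 distal shared peaks per 100 kb and all genes had 4.10. Without the testis-type Adam and chromosome 9 Mmp genes the members had 4.49. Adamts18, many of whose peaks were weak, gave 40 of the 397 distal shared peaks in that count, at 16.4 per 100 kb.

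**Figure D4:**
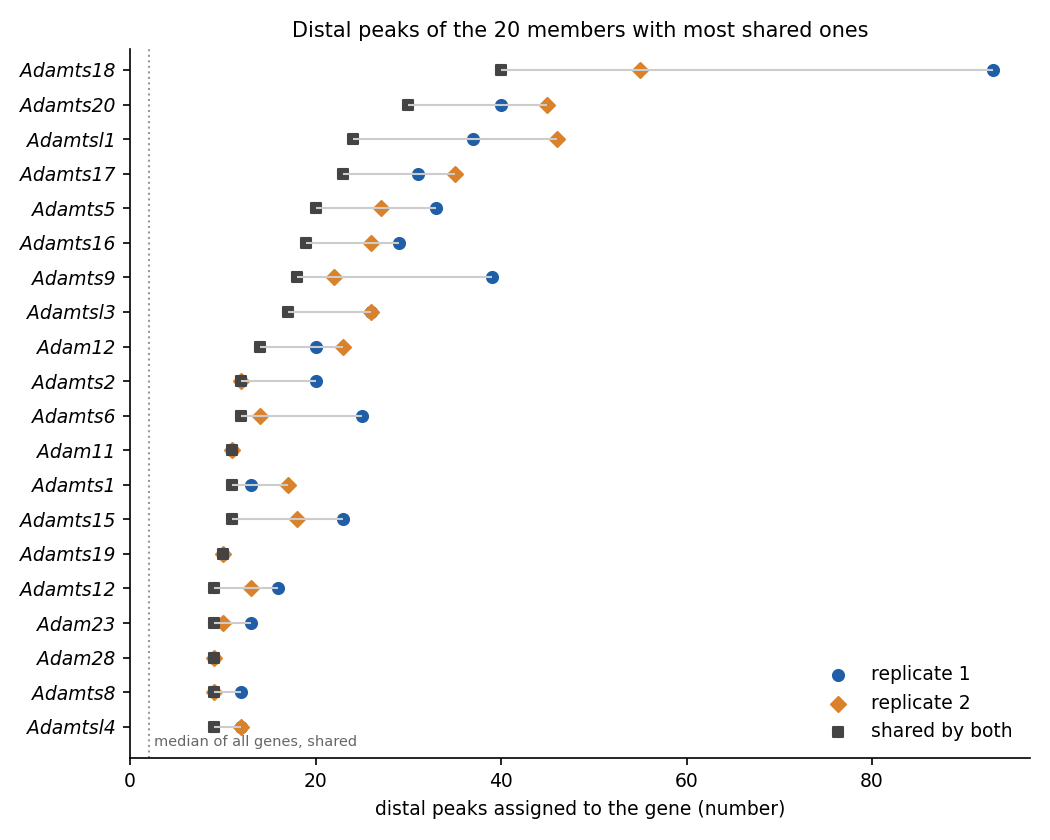
Number of distal peaks assigned to each of the 20 members with most shared ones, in replicate 1 (circles), replicate 2 (diamonds) and shared by both (squares); the dotted line is the median of all genes. Adamts18 is farthest right with 93, 55 and 40, followed by Adamts20 with 40, 45 and 30.

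The members with many distal peaks were mostly Adamts and Adamtsl genes, and no Mmp gene had 10 or more. Adamts20 had 40 distal peaks in replicate 1, 45 in replicate 2 and 30 shared, more shared ones than 98.3% of all genes. Adamts5 had 33, 27 and 20, and Adamts9 had 39, 22 and 18. These counts rest on the 500 kb reach and on weak peaks. With a reach of 100 kb Adamts20, Adamts5 and Adamts9 had 7, 6 and 8 shared distal peaks, and with peaks above the median signal of their library they had 16, 7 and 5. Adamtsl1, the longest member at 914 kb, had 37, 46 and 24. Adamts17 had 31, 35 and 23, Adamtsl3 26, 26 and 17, and Adamts16, without a shared promoter peak, 29, 26 and 19. With a reach of 100 kb Adamts16 had 4 shared distal peaks and Adamtsl1 had 11, while Adamts17 had 23 and Adamtsl3 had 13.

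The further members with most shared distal peaks were Adam12, Adamts2 and Adamts6. Adam12, a sheddase known from muscle and cartilage, had 20, 23 and 14. Adamts2 had 20, 12 and 12 and Adamts6 25, 14 and 12. In these last genes and in Adamts9 replicate 1 held the larger number. Adamts3 had 13, 13 and 8, Adam23 had 13, 10 and 9 and Adam28 had 9, 9 and 9. Among the Mmp genes outside the cluster the highest counts were 7, 9 and 7 at Mmp17 and 9, 10 and 6 at Mmp16, followed by 6, 9 and 4 at Mmp2, 5, 4 and 4 at Mmp19, 5, 6 and 3 at Mmp15 and 3, 3 and 3 at Mmp23. Mmp9 had 6, 2 and 2. Among testis-type genes they were 13, 13 and 8 at Adam34 and 10, 8 and 8 at Adam6a. Each was the nearest protein-coding start for over 500 kb of sequence. Other kinds of genes in that sequence were not counted, so these peaks need not relate to the Adam gene.

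Adamts18 had the most distal peaks of all members, with 93 in replicate 1, 55 in replicate 2 and 40 shared, and it was also where the libraries differed most. Many of its peaks were among the weakest of the lists. The median signal of its distal peaks was 16 in replicate 1 and 11 in replicate 2, where all peaks had medians of 47 and 39. Inside the gene, 64 of 83 peaks of replicate 1 and 35 of 49 of replicate 2 had a signal of 20 or less, a limit chosen after the values had been seen. Such peaks made up 1.33% of all peaks in replicate 1 and 9.62% in replicate 2. Only 1 gene, Immp2l with 72, held more of them in its body in replicate 1, and no gene held more in replicate 2.

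The weak peaks of Adamts18 lay in stretches 30 to 50 kb and 65 to 85 kb from the 5′ end. The nearer stretch held 27 in replicate 1 and 6 in replicate 2, and the farther held 37 and 29. Of the 37 in the farther stretch 21 overlapped a peak of replicate 2, and of the 27 in the nearer stretch 7 did. Hotspots, the wider regions of the deposit, covered 29.2 kb of the gene in replicate 1 with the widest at 6060 bp, and 12.4 kb in replicate 2 with the widest at 1734 bp. With peaks above the median signal of their library, Adamts18 had 7 shared distal peaks, fewer than Adamts20 with 16, Adamtsl1 with 12, Adamts17 with 12 and Adamts16 with 10. The cause of the weak peaks was not tested. Of its 40 distal shared peaks, 1 lay mostly in masked repeats.

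**Figure D5:**
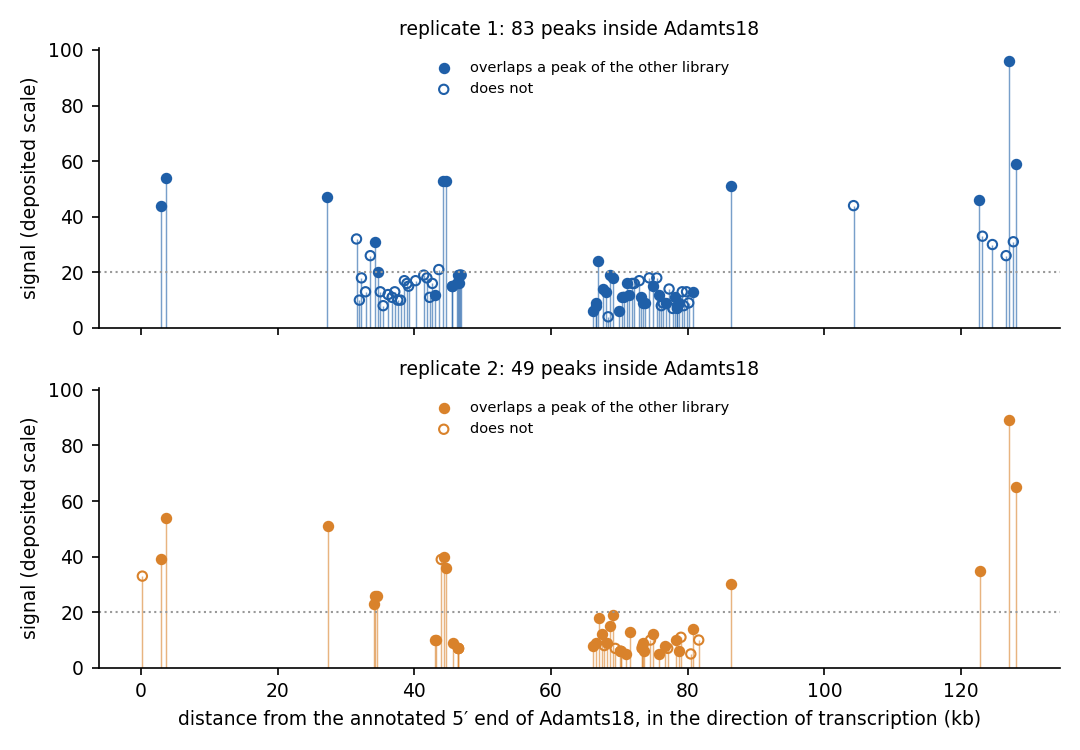
Peaks inside Adamts18 by distance from the annotated 5′ end in kb (horizontal axis) and by deposited signal (vertical axis), for replicate 1 (upper panel, 83 peaks) and replicate 2 (lower panel, 49 peaks); filled points overlap a peak of the other library and the dotted line is a signal of 20. Weak peaks crowd the stretches at 30 to 50 kb and 65 to 85 kb, the nearer one with 27 in replicate 1 and 6 in replicate 2.

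Members' distal shared peaks numbered 449. Of these 227 (50.6%) lay inside the member's own gene, beside 39.2% for all genes, 33.0% lay upstream and 16.5% downstream. The median distance to the start was 46.3 kb in members and 33.8 kb in all genes, and 29.6% beside 24.1% lay farther than 100 kb. The share of the members' distal peaks with an overlapping peak in the other library was 64.0% for replicate 1 and 73.3% for replicate 2. Over all genes those shares were 69.0% and 71.5%.

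The 5 strongest distal shared peaks of the members, by that mean rank, belong to Adam11, Adamts6, Mmp2 and Adamts9. They are shown on the plus strand of GRCm38, 5′ to 3′, with matches to the searched words in capitals. None overlaps an annotated exon of a protein-coding transcript, and intron here refers to such transcripts. The second Adam11 peak covers the start of the Adam11 transcript without a coding sequence described above.
Adam11 intron, first, chr11:102774756-102774965, plus strand: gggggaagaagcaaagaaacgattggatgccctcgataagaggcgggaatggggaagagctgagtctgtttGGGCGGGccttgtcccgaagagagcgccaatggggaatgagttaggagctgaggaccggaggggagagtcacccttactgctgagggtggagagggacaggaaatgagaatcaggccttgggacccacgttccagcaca
Adam11 intron, second, chr11:102774016-102774185, plus strand: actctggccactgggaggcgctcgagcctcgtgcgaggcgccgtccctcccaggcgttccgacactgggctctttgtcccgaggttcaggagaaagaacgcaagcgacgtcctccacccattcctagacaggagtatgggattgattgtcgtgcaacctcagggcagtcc
Adamts6 downstream, chr13:104518436-104518585, plus strand: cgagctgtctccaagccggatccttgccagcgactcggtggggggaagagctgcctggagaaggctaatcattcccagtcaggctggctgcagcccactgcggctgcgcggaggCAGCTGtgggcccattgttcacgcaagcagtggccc
Mmp2 upstream, chr8:92818316-92818465, plus strand: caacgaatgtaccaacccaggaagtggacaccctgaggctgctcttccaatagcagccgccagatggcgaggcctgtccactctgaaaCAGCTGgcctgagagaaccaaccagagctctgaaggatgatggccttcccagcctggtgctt
Adamts9 upstream, chr6:93066856-93067085, plus strand: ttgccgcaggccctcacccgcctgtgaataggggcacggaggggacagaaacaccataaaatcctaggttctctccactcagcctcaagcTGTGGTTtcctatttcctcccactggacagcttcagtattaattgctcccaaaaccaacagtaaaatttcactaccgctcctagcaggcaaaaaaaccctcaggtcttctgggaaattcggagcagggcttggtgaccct
The Adamts6 peak lay 224 kb downstream of the nearest start of the gene, between genes, with signals of 114 and 107, the first above that of the Adam11 peak in replicate 1. The Mmp2 peak lay 8.90 kb upstream with 110 and 104. The Adamts9 peak lay 123 kb upstream with 104 and 92. The first Adam11 peak held a GC box, the Adamts6 and Mmp2 peaks an E-box CAGCTG, and the Adamts9 peak the RUNX word TGTGGTT. The second Adam11 peak held none of the words.

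Over the central 150 bp of all 449 distal shared peaks, most words named here were about as frequent as over all genes' distal peaks. RUNX and the GC box lay farthest from those shares, in few peaks, and the differences were not tested. The E-box was in 17.6% beside 16.7%, the word AGGGGGC of CTCF in 7.35% beside 7.26%, AP-1 in 4.23% beside 4.56% and the TEAD word CATTCCA in 3.56% beside 3.77%. RUNX was in 2.00% (9 peaks) beside 3.91% and the GC box in 5.35% (24 peaks) beside 3.91%. In the 46 distal shared peaks of testis-type Adam genes the CTCF word was in 7 (15.2%) and the GC box in 0. All 7 peaks with the CTCF word are among the 8 distal shared peaks that had Adam6a as the nearest protein-coding start.

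The listed regulators of these proteases had promoter peaks of differing strength. All 12 listed genes, which are Timp inhibitors, the membrane inhibitor Reck, proprotein convertases that activate the enzymes, iRhom partners of Adam17 and Adamts-like matrix proteins, had a shared promoter peak, beside 68.1% of all genes. The median promoter signal of these 12 was 93.5 in replicate 1 and 90 in replicate 2, beside 108 in both over all genes. Timp4 had only 33 and 36, and Papln 50 and 34. Thsd4, also named Adamtsl6, had 72 distal peaks in each library and 49 shared, more than any of the 79 members. Pcsk5, a convertase, had 30, 32 and 21. Of 12 substrate genes 11 had a shared promoter peak, and Bcan, a brain proteoglycan, did not. Col1a2, a chain of type I collagen, had 25 distal peaks in replicate 1, 31 in replicate 2 and 20 shared. Col1a1 had 24, 28 and 18, and Vcan, which encodes the versican cut by Adamts5, Adamts9 and Adamts20, had 24, 22 and 18. Fbn2 and Fn1 had 18 shared ones as well.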

How the data were processed

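Limb DNase-seq of 2 libraries was deposited as peak and hotspot lists per library on mm10. Peaks carry a signal, a score of the authors without stated scaling, and hotspots carry the −log10 q value deposited by the authors, with a ceiling of 100. Depth is unknown, since no read counts were used, and no interval is given. Chromosome lengths fit GRCm38. Genes came from GENCODE M21, and promoter sequences from the RefSeq table, which held 48 of the 79 members. Protein-coding genes without a protein-coding start were left out. Overlap meant at least 1 bp. Placement was tested on simulated data, where 6 of 6 checks gave the known answer. The members, gene lists and tests were chosen with earlier results of these data known. Named genes were all testis-type Adam genes, the 12 members with most distal shared peaks, the 6 highest promoter signals, the 2 members of each group with most distal peaks, members with a promoter peak in 1 library, the 5 that differed most between libraries, the 5 strongest distal peaks, and 2 regulators and 2 substrates; other members were named to complete their groups after their values were seen. Further regulators and substrates were also named after their values were seen. Python 3.11.15, NumPy 2.4.6, pandas 2.3.3 and Matplotlib 3.10.9 were used.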

Additional observations from a re-analysis of the deposited data

How the results depend on the processing

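The number of members with a promoter peak was between 46 and 53 under every alternative run, and that of testis-type Adam genes between 5 and 7. With a 2 kb window 1 chromosome 9 Mmp gene had a promoter peak, where 0 had with 1 kb. The median of distal shared peaks per member fell from 3 to 2 with a 2 kb window, an overlap required to span 50% of each peak, hotspots in place of peaks, or a reach of 100 kb or 50 kb, and to 1 with peaks above the median signal; all genes then had a median of 1. Members with 10 or more distal peaks numbered 4 with peaks above the median signal, 7 with a reach of 100 kb and 3 with 50 kb, which are 5.06%, 8.86% and 3.80% of members beside 4.76%, 8.09% and 4.45% of all genes. The counts of the 12 members with most distal peaks moved widely with these settings: with a reach of 50 kb Adamts20 had 2, Adamts5 had 4, Adamts16 had 1, Adamtsl1 had 5 and Adamts18 had 13, while Adam11 had 11 at either reach. In each library alone (without replicate 1 or without replicate 2) the medians were 4 distal and 2 body peaks, and 21 to 26 members had 10 or more distal peaks. With a stricter definition of CpG-rich, chosen after seeing the data, 10 of 10 such members had a shared promoter peak, and Adam11 was no longer among them; counting a promoter peak only at its nearest gene, also added later, left 47 members. No paired analysis was possible because both libraries belong to 1 group.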
